A study of Mus musculus with 9 samples.

Results

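The enzymes described are those that remove superoxide and peroxides: the superoxide dismutases Sod1, Sod2 and Sod3, catalase (Cat), the glutathione peroxidases Gpx1, Gpx2, Gpx3 and Gpx4, and the peroxiredoxins Prdx1 and Prdx6. They were chosen by name, as 10 of the 56748 genes in the count table, and all 10 passed the filter on low counts that left 17276 genes. Total RNA of primary pancreatic islets from wild-type (wt) mice of the C57bl/6 strain was sequenced in 9 libraries, 3 in each of 3 groups. Particle islets were exposed for 48 hours to the cytokines IL-1beta, TNF-alfa and IL6 and were treated with PD-G-MSNPs, polydopamine-coated mesoporous silica nanoparticles made to deliver nutrients. Cytokine islets received the same cytokines without particles, and untreated islets received neither. Islets given particles without cytokines were not analysed here, so the particles are measured in the presence of cytokines only. The labels do not give the age or sex of the mice or their number per library, nor whether replicates came from separate animals, so that the spread behind each p-value may be technical in part. A whole islet holds several cell types, and in such bulk RNA fewer cells of a type and less RNA per cell cannot be told apart.

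Superoxide dismutases turn superoxide into hydrogen peroxide and oxygen, so they pass the burden on to the enzymes that remove peroxide. Catalase breaks hydrogen peroxide down in peroxisomes. Glutathione peroxidases reduce peroxides with glutathione, and several of them carry selenocysteine at the active site. Peroxiredoxins use a reactive cysteine that is restored by thioredoxin or, for Prdx6, by glutathione. Rodent islets are known for low catalase and glutathione peroxidase activity beside better supplied superoxide dismutases, and beta cells are known to be sensitive to peroxide.

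The stretches just upstream of 3 of the genes are shown because these genes were among those that rose most with cytokines, and because they differ in the motifs they hold. The stretch of Gpx3, which fell, is not shown. They are the 250 bases before the annotated start in RefSeq, build GRCm38.p6, read 5′ to 3′, and 8 of the 10 enzymes matched an entry (all but Sod3 and Prdx6).
Prdx1 (chr4:116685349-116685598, plus strand): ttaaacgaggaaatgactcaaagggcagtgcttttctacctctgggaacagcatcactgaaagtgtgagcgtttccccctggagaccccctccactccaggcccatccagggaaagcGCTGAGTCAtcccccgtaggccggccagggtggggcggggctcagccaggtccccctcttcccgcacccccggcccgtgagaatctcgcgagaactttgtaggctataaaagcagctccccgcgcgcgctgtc
Sod2 (chr17:13007589-13007838, plus strand): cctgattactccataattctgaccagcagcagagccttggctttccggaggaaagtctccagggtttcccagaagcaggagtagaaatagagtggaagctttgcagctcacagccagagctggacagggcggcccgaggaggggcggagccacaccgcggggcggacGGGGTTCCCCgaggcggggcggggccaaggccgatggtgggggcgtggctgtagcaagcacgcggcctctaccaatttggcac
Gpx1 (chr9:108338830-108339079, plus strand): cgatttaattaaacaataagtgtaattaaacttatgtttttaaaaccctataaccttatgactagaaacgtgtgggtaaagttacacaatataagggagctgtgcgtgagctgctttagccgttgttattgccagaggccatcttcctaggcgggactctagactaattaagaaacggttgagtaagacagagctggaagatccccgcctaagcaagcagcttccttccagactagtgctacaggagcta
The capitals in Prdx1 mark a match to the antioxidant response element core (TGACNNNGC, here on the opposite strand), the sequence bound by the oxidant-responsive factor NRF2, and lie 133 to 125 bases before the start. Those in Sod2 mark a match to the consensus of NF-kB, a factor that interleukin-1 and tumour necrosis factor activate, and lie 83 to 74 bases before the start. Gpx1 held no match to any of the 5 motifs searched on both strands. The antioxidant response element core was found in 2 of the 8 enzymes, Prdx1 and Sod1, and in 10.2% of 32851 promoter entries of the same length. The NF-kB consensus occurred in Prdx1 and Sod2 and in 3.9% of entries. An AP-1 motif (TGANTCA) was held by Prdx1 at 2 places, 1 of them overlapping the antioxidant response element core, and by 6.75% of entries. A STAT motif (TTCNNNGAA) was found in Sod2 alone among the 8 and in 7.02% of entries, and a GC box (GGGCGG) in 6 of the 8 and in 32.7% of entries. An enzyme was counted when any of its entries matched, and Gpx4 had several entries, whereas the percentages are per entry. The 2 kinds of share are therefore not strictly alike. These matches describe the letters in a short window and say nothing of binding.

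Library totals ranged from 17832949 to 55865759 counts. Levels between libraries are given as counts per 1e6 counts (CPM) with totals scaled by TMM factors, and a gene was called when its p in the quasi-likelihood test of edgeR, adjusted over all 17276 genes by the Benjamini-Hochberg method, was under 0.05. The libraries matched their tissue label, with 87560 to 240200 CPM in particle islets, 123600 to 229000 CPM in cytokine islets and 341800 to 360100 CPM in untreated islets over 10 beta cell markers. Particle replicate 2 stood apart from the other 2 of its group. Its summed alpha cell markers reached 8031 CPM, against 501 and 132 CPM in particle replicates 1 and 3, and its sum over 12 acinar markers was 3536 CPM, against 22.0 and 239 CPM. Cytokine replicate 3 stood apart in acinar markers too, at 2711 CPM, against 34.1 and 37.4 CPM in cytokine replicates 1 and 2, and untreated islets held 93.5 to 1641 CPM. Results that rest on particle replicate 2 are given with and without it.

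Most of the enzymes were higher in cytokine islets than in untreated islets. Of the 10, 7 rose (Sod2, Sod3, Cat, Gpx1, Gpx2, Prdx1 and Prdx6), 1 fell (Gpx3) and 2 were not called (Sod1 and Gpx4), where 20.7% of all tested genes rose, 19% fell and 39.6% were called in either direction. Without overlap between libraries, 7 enzymes lay above untreated islets and 1 below, where 28.3% of genes lay above, 28.5% below and 56.7% on either side. Their median log2 fold change was 1.16, beside 0.05 over all tested genes. In particle islets against untreated islets, 9 of the 10 log2 fold changes were positive (median 1.32, beside 0.05 over all tested genes), with 6 enzymes called higher (Sod2, Sod3, Cat, Gpx1, Gpx2 and Prdx1) and none lower (none with DESeq2 either, and no negative one at an unadjusted p under 0.05), where 11.4% of genes were called higher, 5.92% lower and 17.3% in either direction. Particle libraries lay above all untreated ones for 8 enzymes and below them for 1, where 22.9% of genes lay above, 20.6% below and 43.5% on either side. Without particle replicate 2, 6 enzymes were higher and 1, Gpx3, was lower. Between particle and cytokine islets edgeR called none of the 10 and none of all genes (0%), while 4 of the 10 had an unadjusted p under 0.05 and DESeq2 called 2. Both comparisons with untreated islets use the same 3 untreated libraries.

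**Figure D1:**
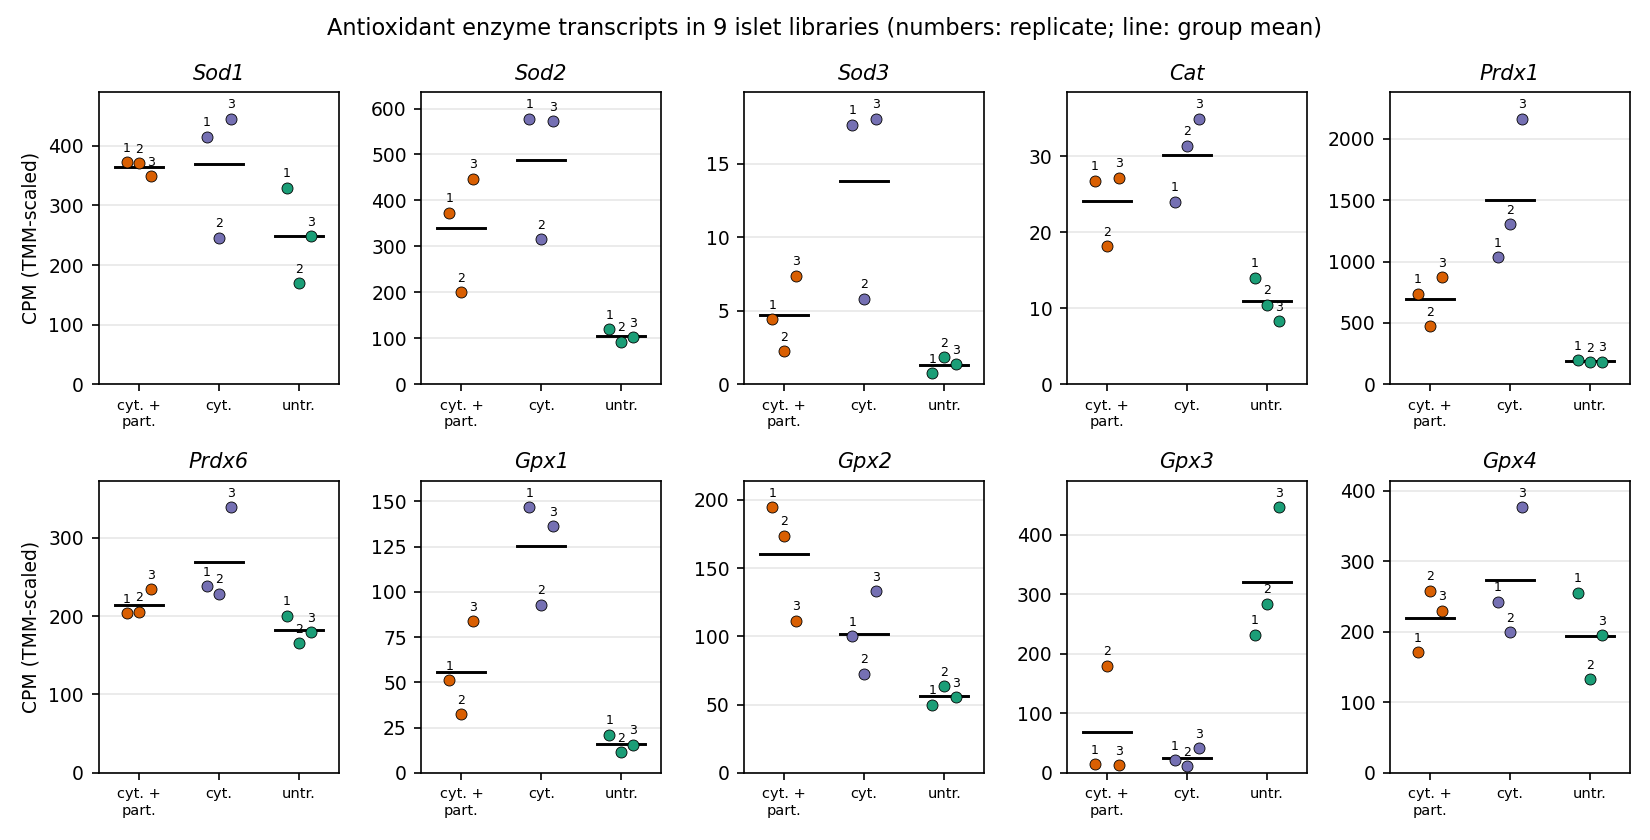
TMM-scaled CPM of each enzyme in each library, with 1 panel per gene; points are libraries numbered by replicate, lines are group means, and cyt. + part., cyt. and untr. are particle, cytokine and untreated islets. Prdx1, Gpx1, Sod2 and Cat lie above the untreated libraries in every particle and cytokine library, Gpx3 lies low in 5 of these 6, and Prdx1 and Gpx1 of particle islets lie below all cytokine libraries.

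The mitochondrial superoxide dismutase Sod2, which uses manganese and is known to respond to interleukin-1 and tumour necrosis factor, had a larger log2 fold change than its cytosolic counterpart Sod1. Coordinates of genes are those of the count table on GRCm39. Sod2 (ENSMUSG00000006818, chromosome 17, 13225733 to 13258950, plus strand) was measured at 374, 199.8 and 447 CPM in particle islets, 578, 315 and 572 CPM in cytokine islets and 119, 92.9 and 102 CPM in untreated islets. The lowest of the 6 cytokine-exposed libraries was thus above the highest untreated one, while particle and cytokine libraries overlapped. In cytokine islets Sod2 rose 4.66-fold (log2 fold change 2.22, SE 0.33, edgeR adjusted p = 0.000676), and in particle islets its log2 fold change against untreated islets was 1.70 (SE 0.33, edgeR adjusted p = 0.00665). Between particle and cytokine islets the difference was -0.52 on the log2 scale, with a 95% interval of -1.23 to 0.18 (edgeR adjusted p = 0.481).

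Sod1, the copper and zinc enzyme of the cytosol (ENSMUSG00000022982, chromosome 16, 90017642 to 90023217, plus strand), was at 373, 370.5 and 349.5 CPM in particle islets, 415, 246 and 446 CPM in cytokine islets and 329.5, 169 and 249 CPM in untreated islets. Cytokine and untreated libraries overlapped, and the 3 particle libraries lay close together above all untreated ones. Neither difference from untreated islets passed the test, with log2 fold changes of 0.55 in particle islets (edgeR adjusted p = 0.206) and 0.57 in cytokine islets (95% interval -0.06 to 1.20, edgeR adjusted p = 0.137). Sod1 lies partly over Scaf4 on the other strand, and it is not known whether counting used the strand, so that reads of the overlap may belong to either. Scaf4 held 14417 counts over all libraries, against 81689 for Sod1.

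Sod3, the secreted enzyme that binds to the extracellular matrix, had the lowest level of the 10 and a large relative change. The gene (ENSMUSG00000072941, chromosome 5, 52521133 to 52528760, plus strand) was found at 4.43, 2.25 and 7.37 CPM in particle islets, 17.6, 5.82 and 18.05 CPM in cytokine islets and 0.743, 1.84 and 1.36 CPM in untreated islets. All cytokine libraries were above all untreated ones, and cytokine replicate 2 fell within the range of particle islets. Sod3 rose by 3.39 on the log2 scale in cytokine islets (SE 0.58, 95% interval 2.13 to 4.66, edgeR adjusted p = 0.00128). The log2 fold change of 1.83 in particle islets (SE 0.55, edgeR adjusted p = 0.0436) was called, but the call was lost on leaving out any 1 library other than cytokine replicate 2 or particle replicate 2, with adjusted p of 0.0515 to 0.182.

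Catalase, the peroxisomal enzyme, had a low level and rose by a smaller factor than Sod2 or Sod3. Cat (ENSMUSG00000027187, chromosome 2, 103284194 to 103315505, minus strand) stood at 26.8, 18.2 and 27.2 CPM in particle islets, 24.0, 31.4 and 35.0 CPM in cytokine islets and 14.0, 10.5 and 8.32 CPM in untreated islets. The untreated libraries were the 3 lowest, and the other 6 formed an overlapping range. In cytokine islets Cat rose 2.75-fold (log2 fold change 1.46, SE 0.26, edgeR adjusted p = 0.00164), and in particle islets it rose by 1.14 on the log2 scale (SE 0.26, edgeR adjusted p = 0.015). The call in particle islets was lost without untreated replicate 2 (adjusted p = 0.0635), untreated replicate 3 (adjusted p = 0.0845) or particle replicate 1 (adjusted p = 0.0535).

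Prdx1, a cytosolic peroxiredoxin, rose more in CPM than any of the other 9 enzymes. The gene (ENSMUSG00000028691, chromosome 4, 116542741 to 116558019, plus strand) reached 737, 472 and 871 CPM in particle islets and 1035, 1305 and 2166 CPM in cytokine islets, beside 197.5, 182 and 183 CPM in untreated islets. The 3 groups did not overlap: untreated islets were lowest and closely spaced, particle islets intermediate and cytokine islets highest. In cytokine islets Prdx1 rose 8.01-fold (log2 fold change 3.0, SE 0.34, 95% interval 2.26 to 3.74, edgeR adjusted p = 0.000118), and in particle islets by 1.89 on the log2 scale (SE 0.32, edgeR adjusted p = 0.00325). The Prdx1 promoter printed above held the antioxidant response element core, the NF-kB consensus, the AP-1 motif and a GC box. The part of any of these motifs in the Prdx1 result was not tested.

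Prdx6, the peroxiredoxin that also acts on phospholipids, varied least of the called enzymes. Values of the gene (ENSMUSG00000026701, chromosome 1, 161067682 to 161078789, minus strand) were 204, 206 and 234 CPM in particle islets, 238, 229 and 339.5 CPM in cytokine islets and 201, 165 and 179 CPM in untreated islets. Every cytokine library was above every untreated one, by a narrow margin. The rise of 0.56 on the log2 scale in cytokine islets (SE 0.21, edgeR adjusted p = 0.0497) was lost without any 1 of untreated replicates 1, 2 and 3, cytokine replicates 1 and 3 and particle replicates 1 and 2, with adjusted p of 0.0647 to 0.242. Against untreated islets the log2 fold change in particle islets was 0.24 (edgeR adjusted p = 0.452).

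The 4 glutathione peroxidases split into different patterns. Gpx1, the widespread cytosolic and mitochondrial selenoenzyme (ENSMUSG00000063856, chromosome 9, 108216102 to 108217542, plus strand), was measured at 51.2, 32.3 and 83.65 CPM in particle islets, 147, 92.8 and 136 CPM in cytokine islets and 20.9, 11.3 and 15.4 CPM in untreated islets. As for Prdx1, the 3 groups did not overlap and particle islets lay between the others. Gpx1 rose 7.88-fold in cytokine islets (log2 fold change 2.98, SE 0.37, 95% interval 2.17 to 3.78, edgeR adjusted p = 0.000221) and by 1.81 on the log2 scale in particle islets (SE 0.35, edgeR adjusted p = 0.00675).

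Gpx2, the selenoenzyme best known from the gut epithelium, was the 1 enzyme whose log2 fold change against untreated islets was larger in particle islets than in cytokine islets and called in both. The gene (ENSMUSG00000042808, chromosome 12, 76839107 to 76842273, minus strand) was at 195, 174 and 111.5 CPM in particle islets, 100.2, 72.7 and 133 CPM in cytokine islets and 49.8, 63.6 and 55.3 CPM in untreated islets. Particle replicates 1 and 2 were above all cytokine libraries, and particle replicate 3 fell among them. The rise against untreated islets was 1.51 on the log2 scale in particle islets (SE 0.27, edgeR adjusted p = 0.00427) and 0.86 in cytokine islets (SE 0.27, edgeR adjusted p = 0.0249). The call in cytokine islets was lost without any 1 of untreated replicates 1, 2 and 3 and cytokine replicates 1 and 3, with adjusted p of 0.0509 to 0.122. Gpx2 lies within Fntb on the opposite strand, and Fntb was lower in cytokine islets (edgeR adjusted p = 0.00184), at 19.8 ± 8.31 CPM in particle islets, 12.1 ± 1.34 CPM in cytokine islets and 34.3 ± 3.16 CPM in untreated islets (SD, n = 3 each).

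Gpx3, the glutathione peroxidase secreted into plasma, was the 1 enzyme that fell. The gene (ENSMUSG00000018339, chromosome 11, 54793279 to 54801203, plus strand) was at 14.9, 179.8 and 12.4 CPM in particle islets, 21.2, 11.5 and 40.9 CPM in cytokine islets and 232, 284 and 447 CPM in untreated islets. All untreated libraries were above all others, and particle replicate 2 lay far above the other 5 cytokine-exposed libraries. Gpx3 was 13.1-fold lower in cytokine islets (log2 fold change -3.71, SE 1.1, 95% interval -6.19 to -1.23, edgeR adjusted p = 0.0268). The call was lost without any 1 of untreated replicates 1, 2 and 3 and cytokine replicates 1 and 2, with adjusted p of 0.0571 to 0.087. In particle islets the log2 fold change against untreated islets was -2.22 (SE 1.0, 95% interval -4.55 to 0.11, edgeR adjusted p = 0.167), and without particle replicate 2 it was -4.60 (edgeR adjusted p = 0.000217).

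Markers of several cell types were, like Gpx3, lower in cytokine than in untreated islets, among them those of alpha and delta cells, the other endocrine cells of the islet. Over 8 alpha cell markers the summed level was 132 to 8031 CPM in particle islets, 152 to 533 CPM in cytokine islets and 7663 to 27760 CPM in untreated islets. Over 6 markers of delta and PP cells it was 118 to 3543 CPM in particle islets, 174 to 742 CPM in cytokine islets and 2940 to 8443 CPM in untreated islets. Among tested markers, 6 of 7 for alpha cells and 2 of 5 for delta and PP cells fell in cytokine islets, where 19% of all tested genes fell. Of 10 markers each, 9 fell for beta cells, 6 for endothelial cells and 2 for stellate cells. The stellate share was near that of all genes, and 2 of the 10 stellate markers had a positive log2 fold change. The endothelial sum was 7.68 to 35.3 CPM in particle islets, 7.49 to 11.7 CPM in cytokine islets and 32.0 to 82.7 CPM in untreated islets, and the stellate sum 21.0 to 91.2 CPM in particle islets, 18.8 to 68.1 CPM in cytokine islets and 84.0 to 267.5 CPM in untreated islets. Particle replicate 2 held the highest value of its group in the alpha, delta and PP, beta, acinar, duct, endothelial and stellate sums, as in Gpx3. The part of any of these cells in the Gpx3 result was not tested.

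Gpx4, which reduces lipid peroxides within membranes and is known as the guard against ferroptosis, differed between groups by less than the spread between libraries. The gene (ENSMUSG00000075706, chromosome 10, 79883000 to 79892273, plus strand) was at 171, 258 and 229.6 CPM in particle islets, 243, 199 and 377 CPM in cytokine islets and 256, 133 and 195 CPM in untreated islets. All 3 groups overlapped. The log2 fold change against untreated islets was 0.18 in particle islets (edgeR adjusted p = 0.724) and 0.49 in cytokine islets (95% interval -0.18 to 1.15, edgeR adjusted p = 0.217). Its transcribed pseudogene Gpx4-ps2 had 10863 counts over all libraries, against 59545 for Gpx4, and how reads were shared between them is not known.

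**Figure D2:**
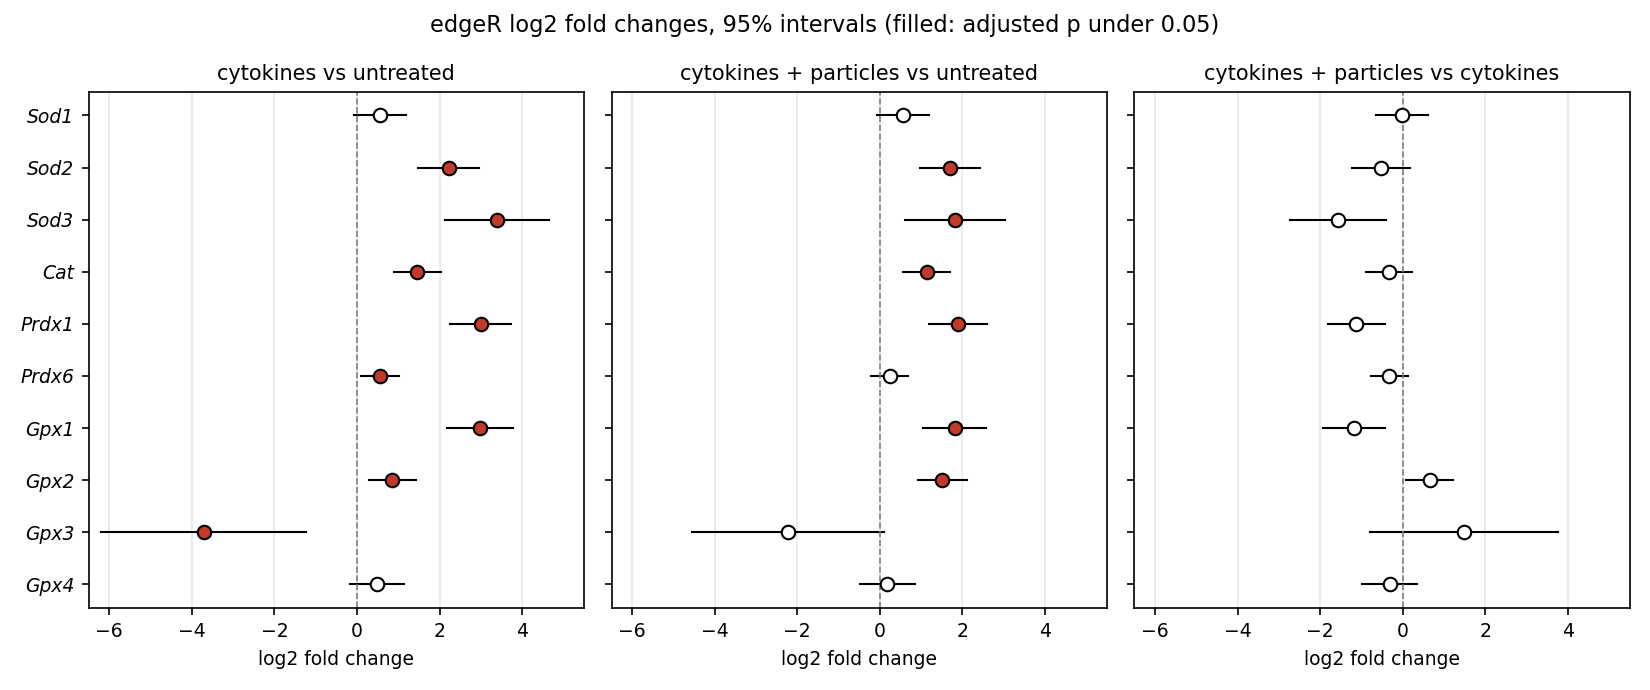
Log2 fold change (x axis) of each enzyme in the 3 comparisons, with 95% intervals; filled points had an edgeR adjusted p under 0.05, and cytokines, cytokines + particles and untreated name cytokine, particle and untreated islets. Against untreated islets 7 enzymes are filled to the right and Gpx3 to the left for cytokine islets, 6 to the right for particle islets, and none is filled between particle and cytokine islets.

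What the particles changed under cytokines is addressed by particle islets against cytokine islets. Prdx1 and Gpx1 showed the clearest separation there: every particle library was below every cytokine library for these 2 of the 10 enzymes, where 6.82% of all tested genes lay below, 8.87% above and 15.7% on either side without overlap. Prdx1 averaged 693 ± 203 CPM in particle islets and 1502 ± 591 CPM in cytokine islets (SD, n = 3 each), a log2 fold change of -1.12 (SE 0.32, 95% interval -1.81 to -0.42, edgeR adjusted p = 0.167). For Gpx1 the means were 55.7 ± 26.0 CPM in particle islets and 125 ± 28.6 CPM in cytokine islets, a log2 fold change of -1.17 (SE 0.34, 95% interval -1.92 to -0.42, edgeR adjusted p = 0.174). Sod3 differed by -1.56 on the log2 scale (95% interval -2.73 to -0.40, edgeR adjusted p = 0.209) and Gpx2 by 0.65 (95% interval 0.07 to 1.23, edgeR adjusted p = 0.28).

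None of these passed after adjustment with edgeR, although these 4 enzymes and 2603 of 17276 genes had an unadjusted p under 0.05. DESeq2 called Prdx1 (adjusted p = 0.0119) and Gpx1 (adjusted p = 0.0265) lower in particle islets, among 487 genes higher and 296 lower. Of the 9 edgeR fits that left out 1 library, Prdx1 was called in 0 and Gpx1 in 1. That fit was without particle replicate 3 (log2 fold change of Gpx1 -1.58, edgeR adjusted p = 0.0314). Without particle replicate 2 the log2 fold changes were -0.91 for Prdx1 (edgeR adjusted p = 0.413) and -0.90 for Gpx1 (edgeR adjusted p = 0.399). The median over the 10 enzymes was -0.33, beside 0.04 over all tested genes. For Sod1 the difference was -0.02 (95% interval -0.65 to 0.61), for Cat -0.33 (edgeR adjusted p = 0.593), for Prdx6 -0.33 (edgeR adjusted p = 0.5) and for Gpx4 -0.31 (edgeR adjusted p = 0.676). The log2 difference of Gpx3 was 1.49 (95% interval -0.79 to 3.77) with all libraries and -0.86 without particle replicate 2 (edgeR adjusted p = 0.566), so its direction rests on that library.

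Macrophage markers were, as a sum and like all of the enzymes except Gpx2 and Gpx3, highest on average in cytokine islets. For Sod1 that order was slight, with means of 364.2 CPM in particle and 368.9 CPM in cytokine islets, and Gpx4 overlapped between all groups. Summed over 12 markers they were at 347 to 534 CPM in particle islets, 1051 to 1166 CPM in cytokine islets and 317 to 394 CPM in untreated islets, and none was at 0 in a whole group. Of the 11 tested, 10 rose in cytokine islets, where 20.7% of all tested genes rose. The other, named as the exception, was C1qa, at means of 54.8 CPM in particle, 122 CPM in cytokine and 156 CPM in untreated islets. In particle islets 3 rose and 1 fell against untreated islets, where 11.4% of genes rose and 5.92% fell. Without overlap, 9 of 11 lay below cytokine islets, where 6.82% of genes did. Between particle and cytokine islets edgeR called none of the 11. All 11 had an unadjusted p under 0.05, as did 2603 of 17276 genes, and DESeq2 called 8 lower, among 296 genes lower. The part of macrophages in these results was not tested.

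**Figure D3:**
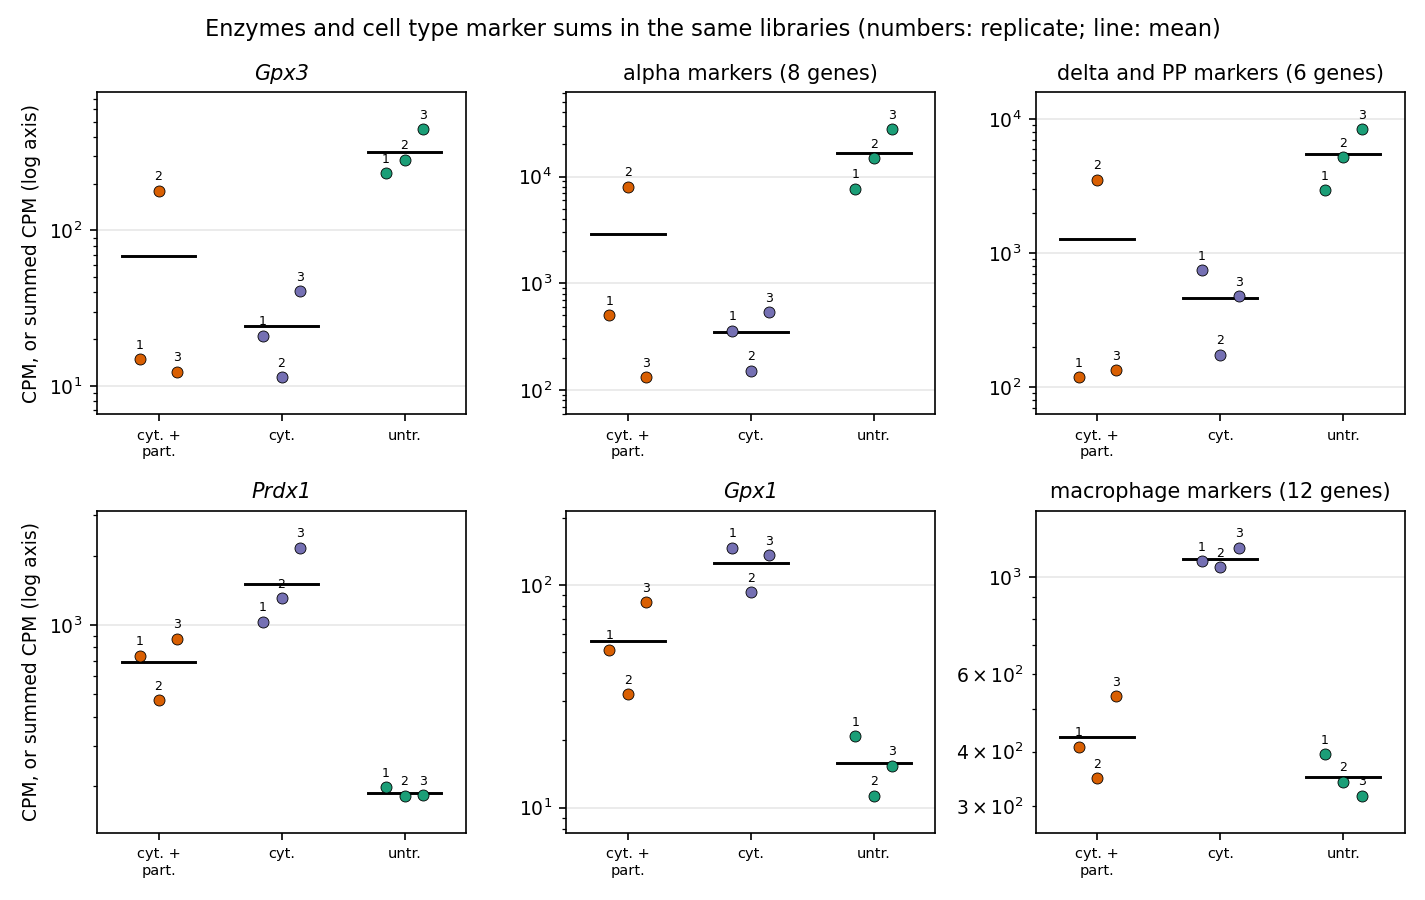
CPM of Gpx3, Prdx1 and Gpx1 and summed CPM of alpha, delta and PP, and macrophage markers in each library, all on log axes; points are libraries numbered by replicate and lines are group means. Particle replicate 2 is the highest of its group in Gpx3 and in both endocrine marker sums shown, and macrophage markers are highest in cytokine islets, as are Prdx1 and Gpx1.

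The order of the enzymes by level per gene length was read from the deposited FPKM values. The lengths used are those given with the counts, and for Gpx1 (1441 bases) and Gpx2 (3167 bases) they equal the whole span of the gene. Places and shares between genes depend on these lengths. By CPM, which uses no length, Sod2 (488.5 CPM) averaged above Gpx4 (272.9 CPM) in cytokine islets. Prdx1 came first in particle islets (220.1 ± 64.5 FPKM) and in cytokine islets (482 ± 194 FPKM), but held the fourth place in untreated islets (62.2 ± 2.08 FPKM), where Gpx3 came first (179 ± 62.6 FPKM; SD, n = 3 each). Prdx1 made up 34.4% of the summed FPKM of the 10 enzymes in particle islets and 49.5% in cytokine islets, and Gpx3 made up 35.8% in untreated islets. Gpx4 came second in all 3 groups, at 123 FPKM in particle, 154.5 FPKM in cytokine and 114 FPKM in untreated islets. The lowest places were held by Cat, at 8.90 FPKM in particle, 11.3 FPKM in cytokine and 4.23 FPKM in untreated islets, and by Sod3, at 1.21 FPKM in particle, 3.60 FPKM in cytokine and 0.357 FPKM in untreated islets. The sum over the 10 was 640 FPKM in particle islets, 974 FPKM in cytokine islets and 500 FPKM in untreated islets.

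Between these ends, several neighbours in the order overlapped between libraries. In particle islets Gpx4, Sod1 and Gpx2 followed Prdx1 without overlap, and Gpx2, Prdx6, Gpx1, Gpx3 and Sod2 overlapped from each to the next. In cytokine islets Sod1, Gpx1, Prdx6, Sod2 and Gpx2 overlapped from each to the next, and so did Gpx3 and Cat. In untreated islets Gpx3 overlapped with Gpx4, Gpx4 with Sod1, Sod1 with Prdx1 and Gpx1 with Sod2. Gpx1 was the sixth in particle islets at 37.3 FPKM and the fourth in cytokine islets at 84.7 FPKM, against the seventh in untreated islets at 11.1 FPKM. The place of Gpx3 in particle islets rests on replicate 2, where it stood at 95.01 FPKM. In particle replicates 1 and 3 it was at 8.05 and 6.54 FPKM, below Cat at 10.1 and 9.96 FPKM.

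**Figure D4:**
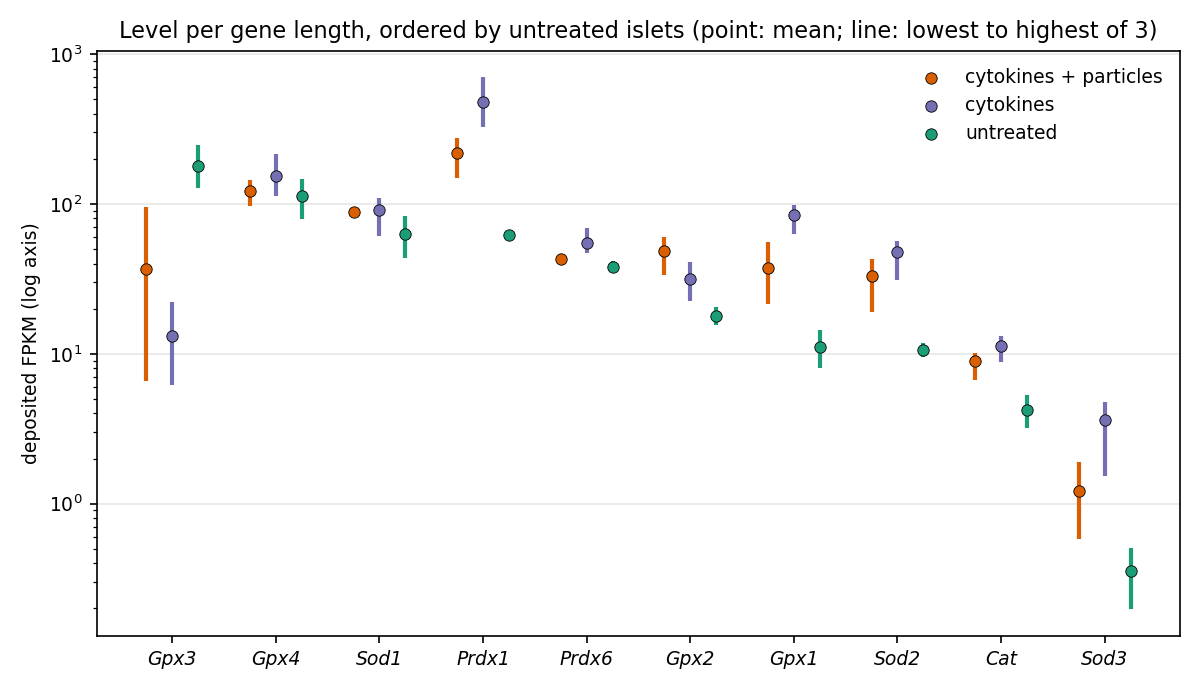
Deposited FPKM of each enzyme on a log axis, ordered by the mean of untreated islets; points are means of 3 libraries and vertical lines run from the lowest to the highest library, for particle, cytokine and untreated islets. Gpx3 stands highest in untreated islets only, Prdx1 stands highest in the other 2 groups, and Sod3 is lowest in all 3.

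Genes that work with these enzymes were taken from 4 lists holding 48 genes, of which 45 were tested. Against untreated islets the list centred on the supply of thiols and glutathione, the largest of the 4 at 17 genes, had the most calls. In cytokine islets 10 of its 17 genes rose and 3 fell, where 20.7% of all tested genes rose and 19% fell, with a median log2 fold change of 0.84, beside 0.05 over all tested genes. Slc7a11, the cystine importer that feeds glutathione synthesis, was at 55.3 ± 30.7 CPM in cytokine islets and 2.45 ± 1.15 CPM in untreated islets (SD, n = 3 each; log2 fold change 4.50, SE 0.52, edgeR adjusted p = 0.000152). Gclm, a subunit of the rate-limiting enzyme of glutathione synthesis, was at 394 ± 38.3 CPM in cytokine islets and 100.4 ± 16.2 CPM in untreated islets (log2 fold change 1.97, edgeR adjusted p = 0.000171). Srxn1, which repairs overoxidised peroxiredoxins such as Prdx1, rose by 1.66 on the log2 scale (edgeR adjusted p = 0.000222). The 3 that fell were Txnip, an inhibitor of thioredoxin, with a log2 fold change of -1.84 (edgeR adjusted p = 0.00146), and the glutaredoxins Glrx5, at -1.20 (edgeR adjusted p = 0.0294), and Glrx, at -0.67 (edgeR adjusted p = 0.0302), named to complete the count.

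In particle islets 8 of these 17 genes rose against untreated islets, where 11.4% of all genes did, and 1, Txnip, fell (log2 fold change -1.79, edgeR adjusted p = 0.00431). Slc7a11 was at 27.0 ± 12.1 CPM in particle islets, Gclm at 321 ± 72.2 CPM and Srxn1 at 347 ± 35.2 CPM (SD, n = 3), with log2 fold changes of 3.46, 1.68 and 1.82 (edgeR adjusted p = 0.00104, 0.000747 and 0.000167). Between particle and cytokine islets Slc7a11 differed by -1.04 (95% interval -2.01 to -0.06, edgeR adjusted p = 0.304), with overlap. Srxn1 differed by 0.16 (95% interval -0.28 to 0.59) and Gclm by -0.30 (95% interval -0.79 to 0.20).

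Of 13 genes for import into peroxisomes, where catalase resides, 4 fell and none rose in cytokine islets, with edgeR and with DESeq2, and 5 had an unadjusted p under 0.05. Over all tested genes 19% fell and 39.6% were called in either direction, so the share of calls in this list was no higher than that of all genes. Its median log2 fold change was -0.27. Abcd3, a transporter of the peroxisomal membrane, was at 30.8 ± 1.88 CPM in cytokine islets and 136 ± 20.6 CPM in untreated islets (SD, n = 3 each; log2 fold change -2.14, edgeR adjusted p = 0.000121). Pex7, a receptor for imported proteins, had a log2 fold change of -1.73 (edgeR adjusted p = 0.000198), and Pex26, the membrane anchor of the receptor export complex, one of -1.58 (edgeR adjusted p = 0.00369). In particle islets Abcd3 (58.5 ± 18.5 CPM, edgeR adjusted p = 0.00656) and Pex7 (39.7 ± 8.73 CPM, edgeR adjusted p = 0.0376) were called lower than in untreated islets. Both lay above cytokine islets without overlap, with log2 differences of 0.92 for Abcd3 (edgeR adjusted p = 0.138) and 1.02 for Pex7 (edgeR adjusted p = 0.121).

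Genes that make selenoproteins, the class to which Gpx1 to Gpx4 belong in mice, were called about as often as all genes, with 2 of 9 higher and 1 lower in cytokine islets, where 20.7% of all genes rose and 19% fell. The 2 that rose were Eefsec, the elongation factor for selenocysteine (log2 fold change 0.80, edgeR adjusted p = 0.00879), and Trnau1ap, which binds the selenocysteine transfer RNA (0.76, edgeR adjusted p = 0.0411). Sepsecs, the enzyme that makes selenocysteine on its transfer RNA, fell in cytokine islets (-0.85, edgeR adjusted p = 0.0135) and in particle islets (-0.81, edgeR adjusted p = 0.0353). Among the 6 tested of 9 other peroxidases, 1 was called, Prdx5, at 189 ± 67.3 CPM in cytokine islets and 109 ± 18.0 CPM in untreated islets (SD, n = 3 each; log2 fold change 0.80, edgeR adjusted p = 0.0427). Prdx3, the mitochondrial peroxiredoxin, had a log2 fold change of 0.40 (edgeR adjusted p = 0.116). Between particle and cytokine islets edgeR called none of the 45, with 5 at an unadjusted p under 0.05, and DESeq2 called 2, both higher, Abcd3 (adjusted p = 0.0177) and Pex7 (adjusted p = 0.00225). Over the 4 lists the 8 genes higher in particle than in untreated islets became 3 without untreated replicate 2 or 3 and 5 without untreated replicate 1 or particle replicate 3, and the 4 lower became 2 without untreated replicate 2 or 3, cytokine replicate 1 or particle replicate 1 or 3. The 8 genes lower in cytokine than in untreated islets became 5 without untreated replicate 3.

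**Figure D5:**
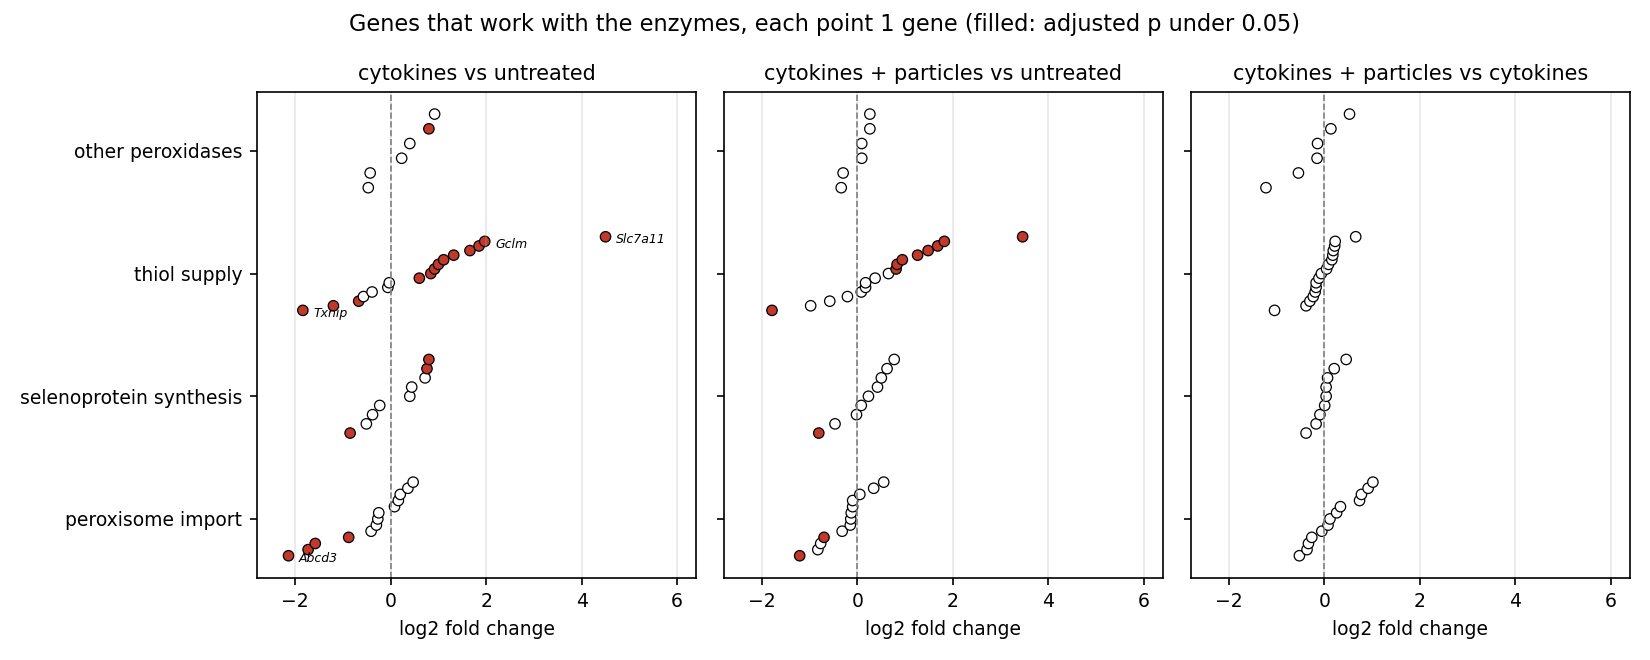
Log2 fold change (x axis) of each tested gene of the 4 lists (rows) in the 3 comparisons; each point is 1 gene, filled where its edgeR adjusted p was under 0.05. Thiol supply has 10 filled points to the right and 3 to the left for cytokine against untreated islets, peroxisome import has 4 to the left, and no point is filled between particle and cytokine islets.

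For each enzyme called in cytokine islets, the protein-coding genes with the most similar course over the 9 libraries were found among 10226 genes, by the mean absolute difference of log2(CPM + 0.1) after each gene was centred on its own mean. Prdx1 was most like Plin2 (0.18), Stom (0.18) and Ctss (0.20), and Gpx1 most like Stom (0.20), Hcls1 (0.20) and Rela (0.22), set beside a range over libraries of 3.57 for Prdx1 and 3.69 for Gpx1. Stom was thus named for both. Sod2 was most like Cpne8 (0.15), Gna13 (0.17) and Met (0.18), Sod3 most like Themis2 (0.30), Itpripl2 (0.32) and Capg (0.36), and Cat most like Eps15 (0.10), Dnase1l1 (0.13) and Cox18 (0.13). For Gpx2 the nearest were Psma5 (0.19), Mrpl27 (0.20) and Rnf135 (0.20), and for Prdx6 Fdft1 (0.06), Hacd2 (0.07) and Ndufab1 (0.08). Gpx3 had its nearest in Eef1a2 (0.30), Arg1 (0.35) and Folr1 (0.37). Eef1a2 averaged 4.70 CPM in particle islets, 1.85 CPM in cytokine islets and 24.2 CPM in untreated islets. It was picked for its likeness to Gpx3 over these libraries, so a shared order of the groups is no separate result. In Gpx3 the place of particle above cytokine islets rests on particle replicate 2.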

How the data were processed

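RNA sequencing of 9 mouse islet libraries was analysed, grouped by sample title per the labels. The untreated columns of the tables carry a shorter name than the sample titles and were matched by name and number. The authors deposited whole-number counts per gene and FPKM values (fragments scaled by gene length and library size); within a library, FPKM and deposited counts divided by length differed by 1 fixed factor. HTSeq, DESeq2 and build GRCm39 were used upstream, per the submitters' processing notes, and their versions, the aligner and the strand setting are not stated in the labels.

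The test on counts was that of edgeR 4.0.16 (R 4.3.3): genes were kept by filterByExpr (smallest count 10, 17276 genes), scaled by TMM and fitted with robust quasi-likelihood models over all 9 libraries, with Benjamini-Hochberg adjustment over all genes per comparison. Alternatives were RLE factors, TMM factors without the 20 most abundant and the mitochondrial genes, no filter, a filter of at least 1 CPM in 3 libraries, DESeq2 1.42.0, only the 2 groups compared, a replicate block, and leaving out each library. The procedure was also run on simulated counts in which far fewer genes were changed than were called in cytokine islets. That run therefore cannot judge the scaling where many genes change. The deepest library held 55865759 counts and the shallowest 17832949, and the enzyme with the fewest counts, Sod3, had 18 to 972 per library. Within groups, pairs of replicates had chi-square values per degree of freedom of 44.2 to 209, so no library was counted as a repeat of another. Named genes were the 10 enzymes, up to 3 genes of each of 4 lists with the smallest p in a comparison, and the 3 nearest profiles of each called enzyme (genes of at least 5 CPM on average). The enzymes and lists were chosen with earlier results of these data known. Promoters came from RefSeq (GRCm38.p6), whose coordinates were not joined with those of the tables. Single genes of the lists that are not named are not reported here.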

Additional observations from a re-analysis of the deposited data

How the results depend on the processing

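Each comparison was refitted under 16 alternatives: 7 other settings and 9 fits that each left out 1 library. Prdx1, Gpx1, Sod2, Sod3 and Cat were called higher in cytokine than in untreated islets under all 16, and Prdx1, Sod2, Gpx1 and Gpx2 higher in particle than in untreated islets under all 16. Prdx6 lost its call in cytokine islets under 12 of 16 (adjusted p 0.0319 to 0.242 over all), Gpx3 under 6 and Gpx2 under 5, and in particle islets Sod3 lost its call under 8 and Cat under 3. Of the refitted fold changes of the 10 enzymes, 435 kept direction and side of the threshold, 34 lost and 5 gained a call, and 6 changed sign. The sign changes were Sod1 between particle and cytokine islets (0.04 with the replicate block, and -0.24 to 0.15 on leaving out 1 library, above 0 without cytokine replicate 1, cytokine replicate 3 or particle replicate 3), Gpx4 between particle and untreated islets (-0.07 to 0.37, below 0 without untreated replicate 2) and Gpx3 between particle and cytokine islets (-0.86 to 2.09, below 0 without particle replicate 2); the cause was not tested.

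Without a count filter, which raised the number of tested genes to 30052, 0 enzymes were called lower in cytokine islets, 1 (Prdx1) was called lower in particle than in cytokine islets together with 1 gene of the 4 lists higher, and over all genes 120 were higher and 101 lower. With DESeq2, 2 enzymes were lower and 2 listed genes higher in particle than in cytokine islets, with 487 higher and 296 lower over all genes, and in particle against untreated islets 8 listed genes were lower and, over all genes, 2345 higher and 1940 lower. Leaving out 1 library gave 5 to 7 enzymes higher and 0 to 1 lower in cytokine against untreated islets, with 9 to 13 and 5 to 8 listed genes and 2278 to 3786 and 2401 to 3588 of all genes higher and lower. For particle against cytokine islets it gave 0 to 1 enzymes lower, 0 to 2 listed genes higher, and 0 to 636 and 0 to 306 of all genes higher and lower. For particle against untreated islets it gave 4 to 6 enzymes higher and 0 to 1 lower, 3 to 10 and 2 to 6 listed genes, and 887 to 2424 and 224 to 2121 of all genes higher and lower.

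Replicate numbers did not pair the libraries: deviations from group means correlated between same-numbered libraries at -0.18 to 0.21. With the replicate block, 6 enzymes were higher and 1 lower in cytokine islets and 5 higher in particle islets against untreated islets, Prdx6 (adjusted p = 0.0652) and Sod3 (adjusted p = 0.0758) losing their calls. With 3 libraries a group, the fold changes of Gpx3 (SE 1.1 in cytokine against untreated islets) and Sod3 (SE 0.58) were the least precise of the 10.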
